A study of Homo sapiens with 3 samples.

Results

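Lipid droplets store triglycerides and sterol esters in a core of neutral lipid under a phospholipid monolayer, and coat proteins on that surface control how fast lipases reach the store. The clear cytoplasm that names clear cell renal carcinoma comes from such stored lipid and from glycogen. Hypoxia-inducible factors, which accumulate when VHL is lost, are known to induce several of the genes described here. Lactylation of histone H4 at lysine 12 (H4K12la), a modification that links chromatin to lactate supply, was examined around 6 of them. HILPDA and G0S2 encode inhibitors of adipose triglyceride lipase (PNPLA2), PLIN2 encodes the perilipin found on droplets of most tissues, CIDEC encodes a protein of droplet fusion, and VLDLR and CD36 encode receptors that bring lipoproteins and fatty acids into the cell.

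The 6 genes were taken by name from 19970 protein-coding RefSeq genes on GRCh38.p14, and each span was extended by 20 kb on both sides. Every peak that overlapped such a window by at least 1 bp was kept, whatever gene it lay nearest. This gave 17 of 62777 peaks in 786-O, 13 of 60760 in Caki-1 replicate 1 and 17 of 67839 in Caki-1 replicate 2, or 47 of 191376 in all. The libraries are CUT&Tag profiles, in which an antibody guides a transposase to the marked chromatin, of 2 established lines of human renal carcinoma, both grown without treatment. The line 786-O carries no functional VHL and is represented by 1 library (replicate 2 of the labels), so none of its values has a replicate error. Caki-1 keeps VHL and is represented by 2 libraries, and since no label says that these came from separate cultures, their spread may be only technical. Line and VHL status cannot be told apart with 1 line of each kind, and no test between the lines was made.

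Peaks were described by position, width and strength. Strength is the authors' value per peak, from lists without a header. It is here called the summit signal in 786-O and Caki-1 replicate 1 and the score in Caki-1 replicate 2, names that no label gives. It was turned into a percentile rank within its own list. Summit positions were likewise read from a column without a label, in 786-O and Caki-1 replicate 1 only. The median value was 21 in the lists of 786-O and Caki-1 replicate 1 and 48 in that of Caki-1 replicate 2. The median peak was 497, 520 and 576 bp wide. The sources used here do not give the read depth, so an absent peak shows only that none was called at the depth reached. Ranks from lists of different lengths show no change between libraries, and none is read from them below. Of 7 renal epithelial marker genes, CDH16 had a peak at a start or end in all 3 libraries and PAX8 had one in each Caki-1 library but none in 786-O. PAX2 had one in 786-O alone (rank 80.3), CDH6 in 786-O and Caki-1 replicate 2 (85.5 and 48.7) and LRP2 in Caki-1 replicate 2 alone (61.6), and LHX1 and CUBN had none. Of the 4 leukocyte markers none had such a peak in any library. Of the 3 endothelial markers only CDH5 had one, in Caki-1 replicate 1. Of the 4 adipocyte markers only PLIN1 had one, in Caki-1 replicate 2. Over all protein-coding genes 45% had such a peak in all 3 libraries and 35% in none, and no cell type is read from these short lists.

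3 of the 6 genes, HILPDA, G0S2 and PLIN2, carried a peak within 1 kb of the transcription start in all 3 libraries. For HILPDA, which has no start in the table used, either annotated end was taken as its start here and below. Over all protein-coding genes the share was 45%, so the count is close to the background. With only the stronger 50% of each list the genes were HILPDA and PLIN2, and the share of all genes was 37.3%. G0S2 then dropped out because of its rank of 46.3 in Caki-1 replicate 1. Both inhibitors of lipolysis and the coat gene were among the marked genes, and the fusion gene CIDEC and the receptor gene CD36 had no start peak in any library, as did 35% of all genes. VLDLR had one in the 786-O library and in replicate 2 of Caki-1, a pattern shown by 2.58% of genes. By library, 4 of the 6 genes had a start peak in 786-O against 52.8% of all genes, 3 in Caki-1 replicate 1 against 55.6% and 4 in Caki-1 replicate 2 against 57.8%. No member had a start peak in 786-O alone (3.65% of genes) or in both Caki-1 libraries without 786-O (7.06%).

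**Figure D1:**
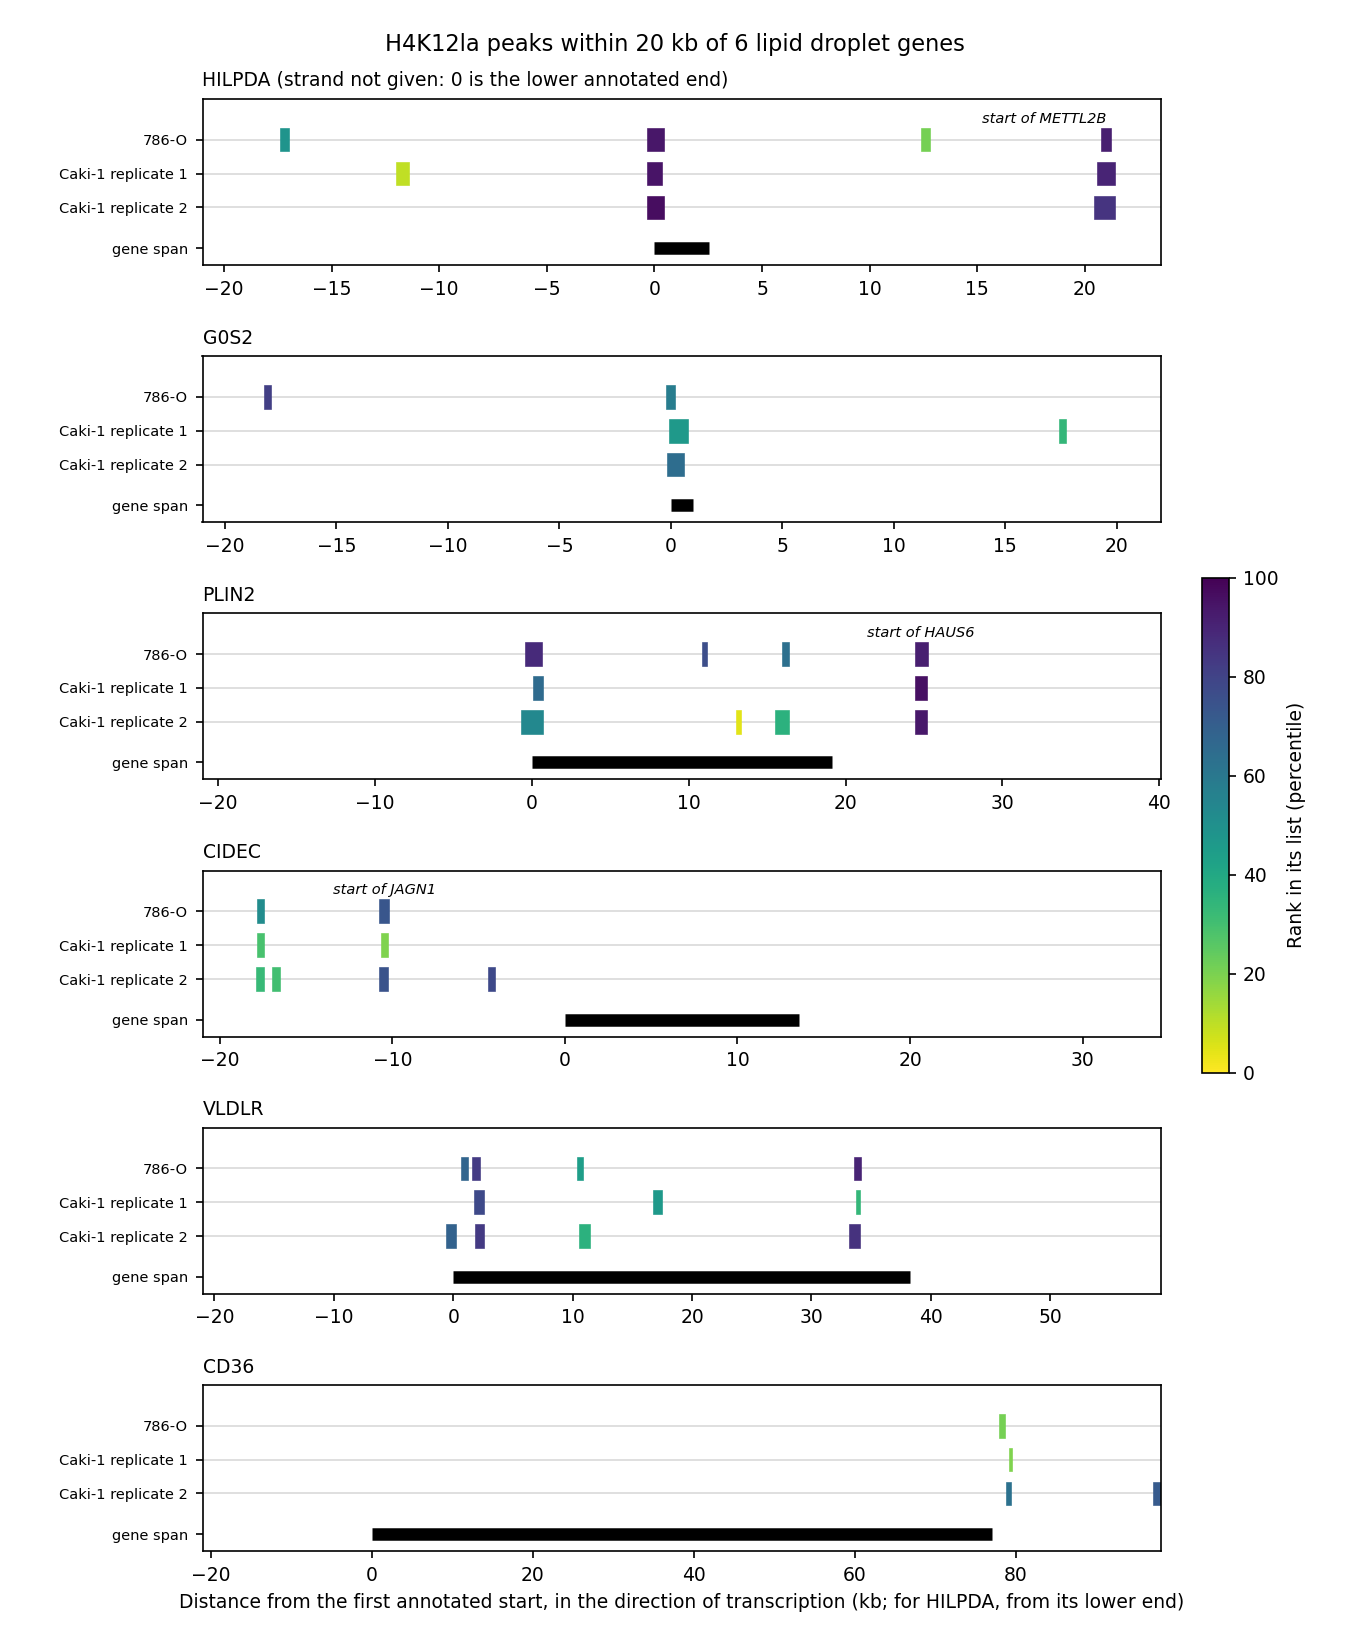
Peaks in the windows of the 6 genes, drawn against the distance in kb from the first annotated start in the direction of transcription, or, for HILPDA, whose strand is not given, from its lower annotated end. Each coloured block is 1 peak of the library named on the left, its width to scale and its colour the percentile rank in its list, and the black bar is the gene. Peaks lie over the lower end of HILPDA and at the starts of G0S2 and PLIN2 in all 3 libraries, and none touches the spans of CIDEC or CD36.

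HILPDA, known as a hypoxia-inducible gene whose product blocks the lipase, had the strongest start peak of the 6 genes in every library. The gene lies on chromosome 7 from 128455878 to 128458418, and its strand is not given in the tables used, so distances were taken from its lower annotated end. The peak ran from 128455534 to 128456301 in 786-O, with a width of 768 bp and a summit signal of 55. In Caki-1 replicate 1 it ran from 128455534 to 128456249, with a signal of 53, and in Caki-1 replicate 2 from 128455534 to 128456301, with a score of 230. The ranks were 93.8, 94.8 and 96.5, which is the top 10% of each list, a level reached at the start in all 3 libraries by 11.5% of protein-coding genes. Among start peaks alone its rank stood at percentiles 73.6, 79.8 and 84.2, while its width was ordinary, at percentiles 54.5, 45.9 and 41.0.

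The HILPDA summit lay 3 bp outside the lower end of the gene in 786-O and 53 bp outside it in Caki-1 replicate 1. EFCAB3P1, a transcribed pseudogene, has the same lower end as HILPDA, and the peak cannot be assigned between them. The other peak of this window found in all 3 libraries lay at the start of METTL2B, a tRNA methyltransferase gene, with ranks of 91.6, 90.1 and 85.0. The rest of the window differed between libraries. In 786-O, peaks of ranks 48.2 and 20.9 lay 16999 bp below HILPDA and inside EFCAB3P1. Caki-1 replicate 1 had 1 of rank 9.4 at a distance of 11412 bp, and Caki-1 replicate 2 had no further peak. None of these weaker peaks was found in a second library.

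G0S2, the other lipase inhibitor and a gene of only 979 bp on the plus strand of chromosome 1 (209675412 to 209676390), had a weaker start peak. In 786-O it measured 374 bp with a signal of 24, in Caki-1 replicate 1 it measured 852 bp with a signal of 20, and in Caki-1 replicate 2 it measured 756 bp with a score of 65. The ranks were 58.1, 46.3 and 64.7, or percentiles 16.6, 15.2 and 25.3 among start peaks, well below those of HILPDA in each library. The summit was 84 bp upstream of the start in 786-O and 72 bp downstream of it in Caki-1 replicate 1. The 3 peaks covered 197, 90 and 187 of the 250 bases before the start. G0S2 lies inside the span of HSD11B1-AS1, a long noncoding RNA gene, so the peak falls in both.

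Around G0S2 no peak other than that at the start was shared. A peak of rank 81.5 lay 17916 bp from the gene in 786-O alone, and 1 of rank 33.7 lay 16427 bp from it, inside HSD11B1, in Caki-1 replicate 1 alone. The start of HSD11B1, which encodes a glucocorticoid-activating enzyme, had no peak in any library. Within 5 Mb of G0S2, 786-O had 4.36 peaks per 1000 of its list and the Caki-1 libraries 7.5 and 7.75.

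PLIN2 had a start peak in all 3 libraries that was wide in 2 of them and, in both Caki-1 libraries, below the median rank of start peaks. The gene lies on the minus strand of chromosome 9 (19108388 to 19127492). In 786-O the peak ran from 19126817 to 19127914, with a width of 1098 bp, a signal of 44 and a rank of 88.0. In Caki-1 replicate 1 it ran from 19126812 to 19127451, with a width of 640 bp, a signal of 26 and a rank of 65.3. In Caki-1 replicate 2 it ran from 19126781 to 19128201, with a width of 1421 bp, a score of 51 and a rank of 53.4. Its downstream edges lay close together in the 3 libraries and its upstream edges did not. Among start peaks the widths stood at percentiles 83.3, 37.0 and 90.6 and the ranks at 57.3, 29.8 and 17.2.

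The PLIN2 summit lay 52 bp upstream of the start in 786-O and 481 bp downstream of it in Caki-1 replicate 1. The peak of Caki-1 replicate 1 ended 41 bp inside the gene and covered none of the 250 bases before the start, all of which were covered in the other libraries. PLIN2 ranked below G0S2 in Caki-1 replicate 2 and above it in the other libraries, so the order of these genes depended on the library. HILPDA ranked above both in each. Within 5 Mb of PLIN2, 786-O had 5.1 peaks per 1000 of its list and both Caki-1 libraries had 3.83, and the part of this difference in the PLIN2 values was not tested.

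PLIN2 was the only member with a start peak in all 3 libraries that also had peaks further inside the gene. A peak 15964 bp into the gene in 786-O (19111107 to 19111528, rank 63.3) overlapped 1 in Caki-1 replicate 2 (19111101 to 19112025, rank 36.0), and none was called there in Caki-1 replicate 1. Peaks of rank 76.4 in 786-O and rank 4.6 in Caki-1 replicate 2 lay elsewhere in the gene and were not shared. The strongest peak of the window belonged to a neighbour. It lay at the start of HAUS6, a subunit of the augmin complex of the mitotic spindle, 5.29 kb beyond the far end of PLIN2, with ranks of 91.6, 96.0 and 93.5. These exceeded the rank of the PLIN2 start peak in every library.

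VLDLR, the receptor for very low density lipoprotein, had more peaks inside the gene than at its start. It lies on the plus strand of chromosome 9 (2621787 to 2660056). The start peak of 786-O ran from 2622466 to 2622988, with a signal of 28 and a rank of 67.7, and lay 679 bp inside the gene. That of Caki-1 replicate 2 ran from 2621196 to 2621998, with a score of 72 and a rank of 69.0. This peak spanned the start and overlapped the antisense gene VLDLR-AS1. The start peaks of 786-O and Caki-1 replicate 2 did not overlap, so the same call in these libraries rests on different positions. Without Caki-1 replicate 1 the number of members with a start peak in every library is 4 in place of 3. The share of all genes is then 47.6% in place of 45%.

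Inside VLDLR, 2 regions had peaks in all 3 libraries. The first lay just past the start peaks, at 2623370 to 2623994 in 786-O with a rank of 82.6, and 1706 and 1779 bp from the start in the Caki-1 libraries with ranks of 77.8 and 82.9. It lies outside the limit of 1 kb and brings VLDLR among the genes marked in all 3 libraries when that limit is 3 kb. At that limit 49.5% of all genes are so marked, in place of 45%. The second lay, by its summit in 786-O, 34036 bp into the gene, where VLDLR overlaps the noncoding gene LOC105375957. Its ranks were 90 in 786-O (2655356 to 2655927, signal 47), 33.7 in Caki-1 replicate 1 (signal 17) and 85.8 in Caki-1 replicate 2 (score 122). A weaker region 10387 bp into the gene was found in 786-O and Caki-1 replicate 2 (ranks 44.4 and 36.0), and 1 of rank 46.3 in Caki-1 replicate 1 alone.

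CIDEC and CD36 carried no peak anywhere in their spans in any library, which was true of 22.4% of protein-coding genes. CIDEC, which promotes the fusion of droplets into larger ones and is known from adipocytes, lies on the minus strand of chromosome 3 (9866710 to 9880253). Its nearest peak, 4029 bp upstream of the start, was found in Caki-1 replicate 2 alone (9884282 to 9884712, score 92, rank 77.9). The peak at the start of the neighbouring gene JAGN1, which encodes a protein of the endoplasmic reticulum, lay 10174 bp from CIDEC in 786-O. Its ranks in the 3 libraries were 73.3, 19.3 and 74.3. A further region 17410 bp upstream of CIDEC was shared by all 3 libraries at ranks of 51.9, 29.0 and 32.6. Within 5 Mb of CIDEC, 786-O had 3.84 peaks per 1000 of its list and the Caki-1 libraries 2.42 and 2.7.

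CD36, a fatty acid translocase and scavenger receptor, has the longest span of the 6 genes (77068 bp on the plus strand of chromosome 7, 80602207 to 80679274). 6 starts are annotated for it, and no peak lay within 1 kb of any of them. The peaks of its window lay beyond the far end of the gene. In 786-O a peak of signal 15 and rank 20.9 lay 886 bp past it, and in Caki-1 peaks lay 2163 bp past it in replicate 1 (signal 14, rank 19.3) and 1785 bp past it in replicate 2 (score 62, rank 62.5). The Caki-1 peaks overlapped each other and not that of 786-O. A last peak, in Caki-1 replicate 2 at 19979 bp, straddled the limit of the window and overlapped a peak of Caki-1 replicate 1 that lay just outside, 20.4 kb from the gene. At the other limits of the windows the nearest peaks left out began 20.6 kb from PLIN2 and 22.5 kb from CIDEC, and the farthest kept lay 18.2 kb from HILPDA.

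**Figure D2:**
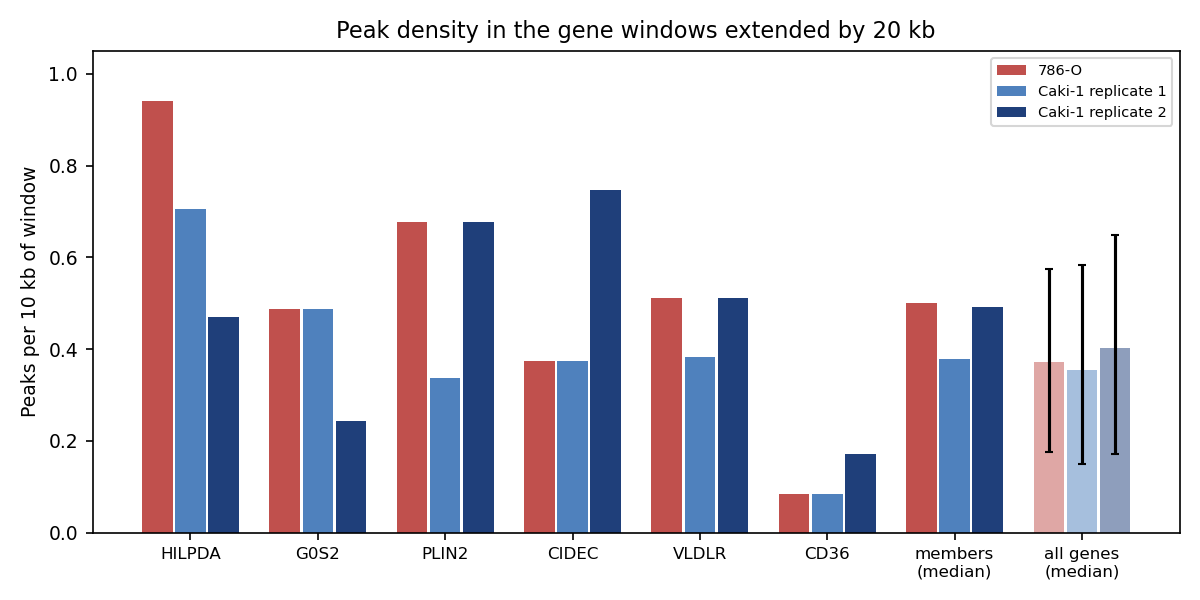
Number of peaks per 10 kb of window for each gene and library, with the median of the 6 genes and of all 19970 protein-coding genes (error bars, lower to upper quartile). CD36 sits below the lower quartile or at it, and HILPDA above the upper quartile in all but Caki-1 replicate 2.

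Per length, the windows of HILPDA and PLIN2 held the most peaks in 786-O and that of CD36 the fewest in every library. HILPDA had 0.94 peaks per 10 kb in 786-O, 0.705 in Caki-1 replicate 1 and 0.47 in Caki-1 replicate 2, at percentiles 96.4, 85.3 and 58.6 of all protein-coding genes. CD36 had 0.0854, 0.0854 and 0.171, at percentiles 16.8, 20 and 24.9. The median of the 6 genes was 0.5, 0.378 and 0.491, beside 0.372, 0.354 and 0.403 over all genes and inside their quartiles. All 6 windows held at least 1 peak in each library, as did 85.3%, 82.5% and 83.9% of all windows by library and 76.7% in all 3, and in CIDEC and CD36 these peaks lay outside the gene.

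The bases before the starts differed between the marked and the unmarked members. The 250 bases before the start are shown for the genes whose starts carried peaks in 3, 3, 2 and none of the libraries, 5′ to 3′ on the gene's strand, from RefSeq on GRCh38.p14. Capitals mark ACGTG or its reverse complement CACGT, a form of the core letters that hypoxia-inducible factors recognise. The regions are chr9:19127493-19127742 on the minus strand for PLIN2, chr1:209675162-209675411 on the plus strand for G0S2, chr9:2621537-2621786 on the plus strand for VLDLR and chr7:80601957-80602206 on the plus strand for the first start of CD36. HILPDA has no entry in the table.
PLIN2: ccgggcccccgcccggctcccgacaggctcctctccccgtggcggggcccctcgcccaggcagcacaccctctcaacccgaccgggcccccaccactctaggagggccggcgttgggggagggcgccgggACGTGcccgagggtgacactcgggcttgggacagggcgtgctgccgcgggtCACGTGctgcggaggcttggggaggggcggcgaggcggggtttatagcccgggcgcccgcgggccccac
G0S2: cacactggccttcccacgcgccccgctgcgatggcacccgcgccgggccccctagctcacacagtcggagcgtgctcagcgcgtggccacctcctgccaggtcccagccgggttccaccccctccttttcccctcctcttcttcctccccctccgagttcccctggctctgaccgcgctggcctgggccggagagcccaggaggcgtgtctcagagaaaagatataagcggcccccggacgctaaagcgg
VLDLR: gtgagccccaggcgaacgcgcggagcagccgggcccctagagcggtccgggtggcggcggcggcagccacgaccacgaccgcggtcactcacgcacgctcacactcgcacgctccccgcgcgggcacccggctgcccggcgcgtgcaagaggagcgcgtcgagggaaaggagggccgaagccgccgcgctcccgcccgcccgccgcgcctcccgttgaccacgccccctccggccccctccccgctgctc
CD36: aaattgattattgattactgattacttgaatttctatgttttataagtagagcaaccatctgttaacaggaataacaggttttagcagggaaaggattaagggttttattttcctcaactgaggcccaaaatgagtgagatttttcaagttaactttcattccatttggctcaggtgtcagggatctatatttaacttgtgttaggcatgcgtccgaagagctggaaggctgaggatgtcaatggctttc

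The PLIN2 sequence above held ACGTG at 3 places, at 120 bases before the start and, overlapping each other on opposite strands, at 69 and 68 bases before it. It was the only 1 of the 11 annotated starts of the 5 matched members with ACGTG on either strand. ACGTG occurs on either strand in 20.2% of the 22131 starts of protein-coding genes. GCGTG, another form of the core, was not counted, and the printed sequences of PLIN2, G0S2 and VLDLR all hold it. G0S2 held TATAA 28 bases before its start and PLIN2 its reverse complement at the same distance. These letters occur in 15.6% of starts, and CD36 also has them, overlapping on opposite strands 210 and 209 bases before its first start. Distances are those of the first base of a match, and both strands were searched. The half-site AGGTCA of nuclear receptors, among them the fatty acid sensors of the PPAR family, was found at 0 of the 11 starts and in 10.5% of all. GGGCGG, the letters of the GC box, occurred at PLIN2, VLDLR and 1 start of CIDEC and in 53.7% of all starts. CCAAT occurred at 1 start of CD36 and in 32.7% of all. Such matches describe letters and not binding.

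VLDLR had 41 CpG in these 250 bases, PLIN2 had 28 and G0S2 had 21. CIDEC had 4 and 2 before its starts, and the 6 starts of CD36 had 1 or 2 each. The median was 16 over all starts. The GC content was 78.8% at VLDLR, 78.0% at PLIN2, 69.2% at G0S2 and 37.2% at the first start of CD36, against a median of 62.0%. Over all starts the share with a peak within 1 kb rose with CpG, from 15.0%, 16.4% and 17.9% in the 3 libraries at 0 to 4 CpG to 72.8%, 75% and 78.1% at 21 to 28. It was 61.9%, 68.7% and 71.0% at 29 or more. The 95% exact (Clopper-Pearson) intervals of these shares, which cover counting error only, were at most 3.1 points wide. The 3 members with many CpG thus lie in classes where most starts had peaks, and CIDEC and CD36 in that where few did.

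**Figure D3:**
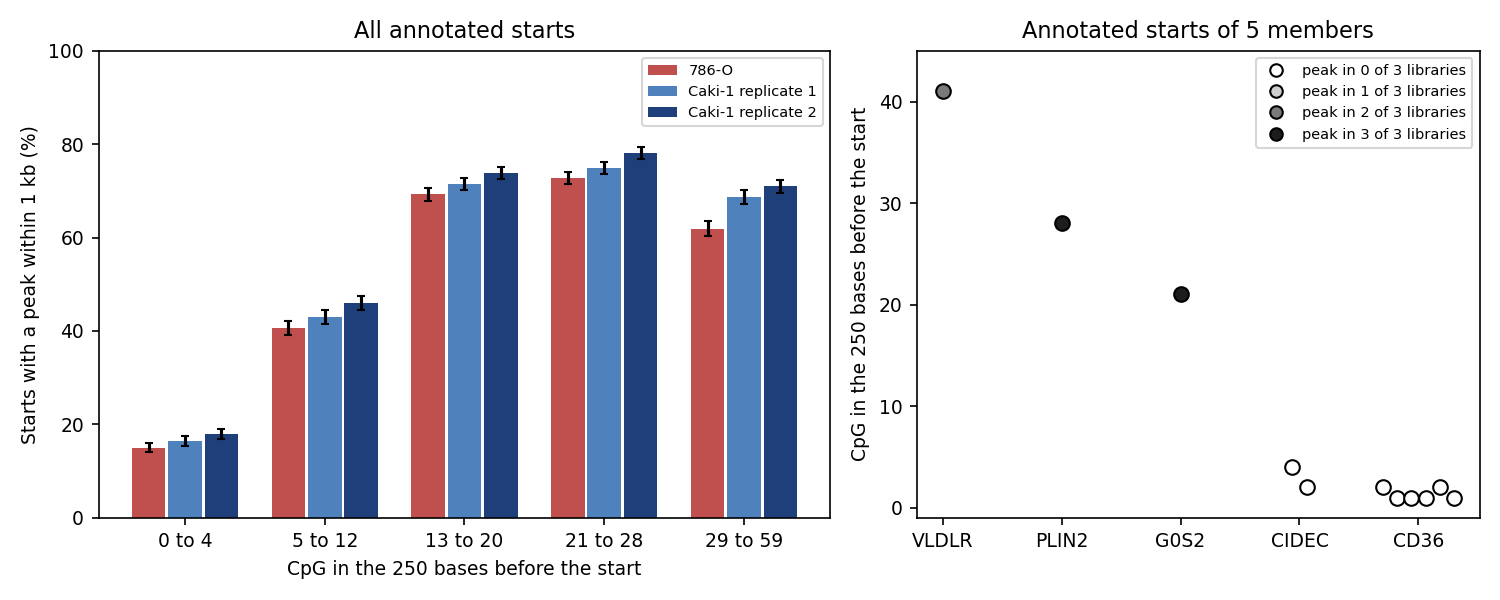
Left, share of all annotated starts with a peak within 1 kb, by the number of CpG in the 250 bases before the start (bars, 1 colour per library; error bars, 95% exact binomial intervals). Right, the number of CpG before each annotated start of 5 members, shaded by the number of libraries with a peak within 1 kb. The starts of VLDLR, PLIN2 and G0S2 have 21 or more CpG, and those of CIDEC and CD36 have 4 or fewer.

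The 47 peaks of the windows merged into 26 regions. 9 regions (34.6%, 95% CI 17.2 to 55.7) had a peak in all 3 libraries, beside 20.5% of the 116359 regions of the genome, a value inside this interval. 6 of these 9 (66.7%) lay at the start of a protein-coding gene, namely HILPDA, G0S2, PLIN2, METTL2B, HAUS6 and JAGN1, beside 33.9% of such regions over the genome. Of the 17 other regions, 2 lay at a start, both at VLDLR (11.8%), beside 5.71%. The windows were drawn around genes, and regions of all 3 libraries lay at starts in a larger share over the genome too, so nothing particular to these genes is read from these counts. 6 regions were found in 786-O alone (23.1%, beside 24.5%), 2 in both Caki-1 libraries without 786-O (7.69%, beside 13.8%), and 3 and 4 in Caki-1 replicates 1 and 2 alone. The count for 786-O asks for presence in 1 library and that for Caki-1 in 2, so they are not symmetric.

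Peak by peak, 9 of the 17 peaks of 786-O overlapped a peak of Caki-1 replicate 1 (52.9%, 95% CI 27.8 to 77) and 11 overlapped 1 of replicate 2 (64.7%, 38.3 to 85.8). Of the 13 peaks of Caki-1 replicate 1, 10 overlapped a peak of replicate 2 (76.9%, 46.2 to 95) and 9 a peak of 786-O (69.2%, 38.6 to 90.9). Of the 17 peaks of Caki-1 replicate 2, 11 overlapped a peak of replicate 1 and 11 a peak of 786-O (64.7% each, 38.3 to 85.8), so sharing in the windows was no greater within Caki-1 than across the lines for this library. Over all peaks the shares were 44.5% and 47.8% for 786-O, 66.2% and 46.0% for Caki-1 replicate 1, and 58.8% and 43.9% for Caki-1 replicate 2. The intervals cover counting error within a list only, and with 1 library of 786-O they do not compare the lines.

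**Figure D4:**
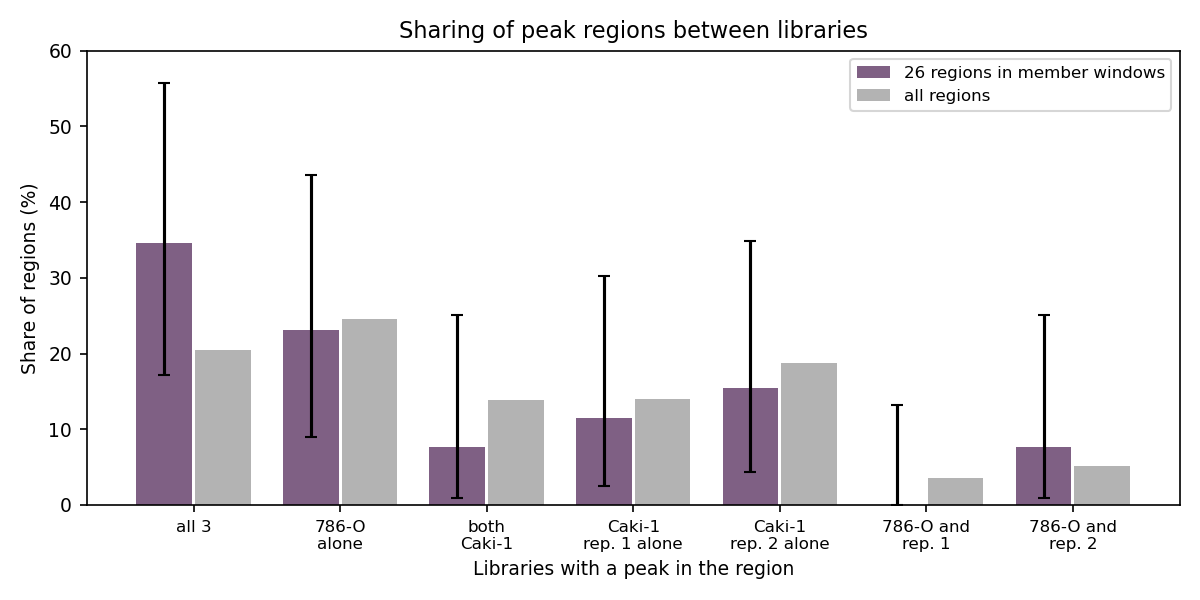
Share of the 26 regions in the member windows (purple; error bars, 95% exact binomial intervals) and of all regions of the 3 lists (grey) by the libraries that had a peak there. The grey bars lie inside the interval of the purple bars in each class.

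Of 43 other genes of lipid droplet biology, 25 (58.1%) had a start peak in all 3 libraries and 8 had none, beside 45% and 35% of all genes. With the stronger 50% of each list the count was 15 (34.9%), below the 37.3% of all genes, so the higher share of the list was not kept. The median rank of their start peaks was 77.8 in 786-O, 77.8 in Caki-1 replicate 1 and 64.9 in Caki-1 replicate 2, below the 85.5, 82.2 and 84.5 of all genes with a start peak. Genes of droplet assembly had a start peak in all 3 libraries in 6 of 6 cases. RAB18, a GTPase on the droplet surface, had the highest rank of the list, 98.5, 99.6 and 99.3. AUP1, a droplet protein that recruits ubiquitin-conjugating enzymes, had 95.1, 90.1 and 89.2, and the droplet dehydrogenase gene HSD17B11 had 94.2, 88.5 and 90.8.

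Of the 10 genes of triglyceride and sterol ester synthesis, 8 had a start peak in all 3 libraries (80.0%, beside 45% of all genes). Some of these peaks were weak, with a rank of 9.4 for ACSL4 in Caki-1 replicate 1 and 26.3 for ACSL1 in 786-O. SOAT1, which esterifies cholesterol for storage, had ranks of 88.0, 99.2 and 98.0. ACSL3, which activates fatty acids at growing droplets, had 92.6, 90.1 and 87.8, and DGAT2, an enzyme of the last step of triglyceride synthesis, had 82.6, 90.7 and 96.0. The phosphatidate phosphatase gene LPIN1 had a start peak in each Caki-1 library (ranks 93.3 and 77.9) but none in 786-O, and the acyltransferase gene AGPAT2 had 1 in 786-O alone (60.9).

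Of the coat, lipolysis and uptake genes, 2 of 6, 2 of 6 and 3 of 7 had start peaks in all 3 libraries. These are 33.3%, 33.3% and 42.9%, beside 45% of all genes. The roles hold 6 to 10 genes each, and no contrast between them is read from these counts. Among the other coat genes, PLIN1 and PLIN5 had 1 in Caki-1 replicate 2 alone (ranks 39.8 and 17.8), and PLIN4 and CIDEA had none. PNPLA2, the lipase that HILPDA and G0S2 inhibit, had a start peak only in Caki-1 replicate 2, with a score of 38 and a rank of 37.3. The lipases encoded by MGLL and PNPLA3 had 1 in Caki-1 replicate 2 alone (24.6) and in replicate 1 alone (24.2), and LIPE, the hormone-sensitive lipase, had none. LIPA, the lysosomal acid lipase, had ranks of 93.0, 90.7 and 92.3. Of the uptake genes, the HDL receptor gene SCARB1 had 82.6, 87.7 and 88.8, and LRP8, LPL, FABP4 and FABP7 had none. Among the regulators 4 of 8 had a start peak in all 3 libraries, SREBF1, which encodes a transcription factor of lipid synthesis, had 1 in Caki-1 replicate 1 alone (56.8), and RXRA, the partner of the PPAR receptors, had none. For 9 of the 43 genes no start is given in the table, and a peak within 1 kb of either end was counted.

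**Figure D5:**
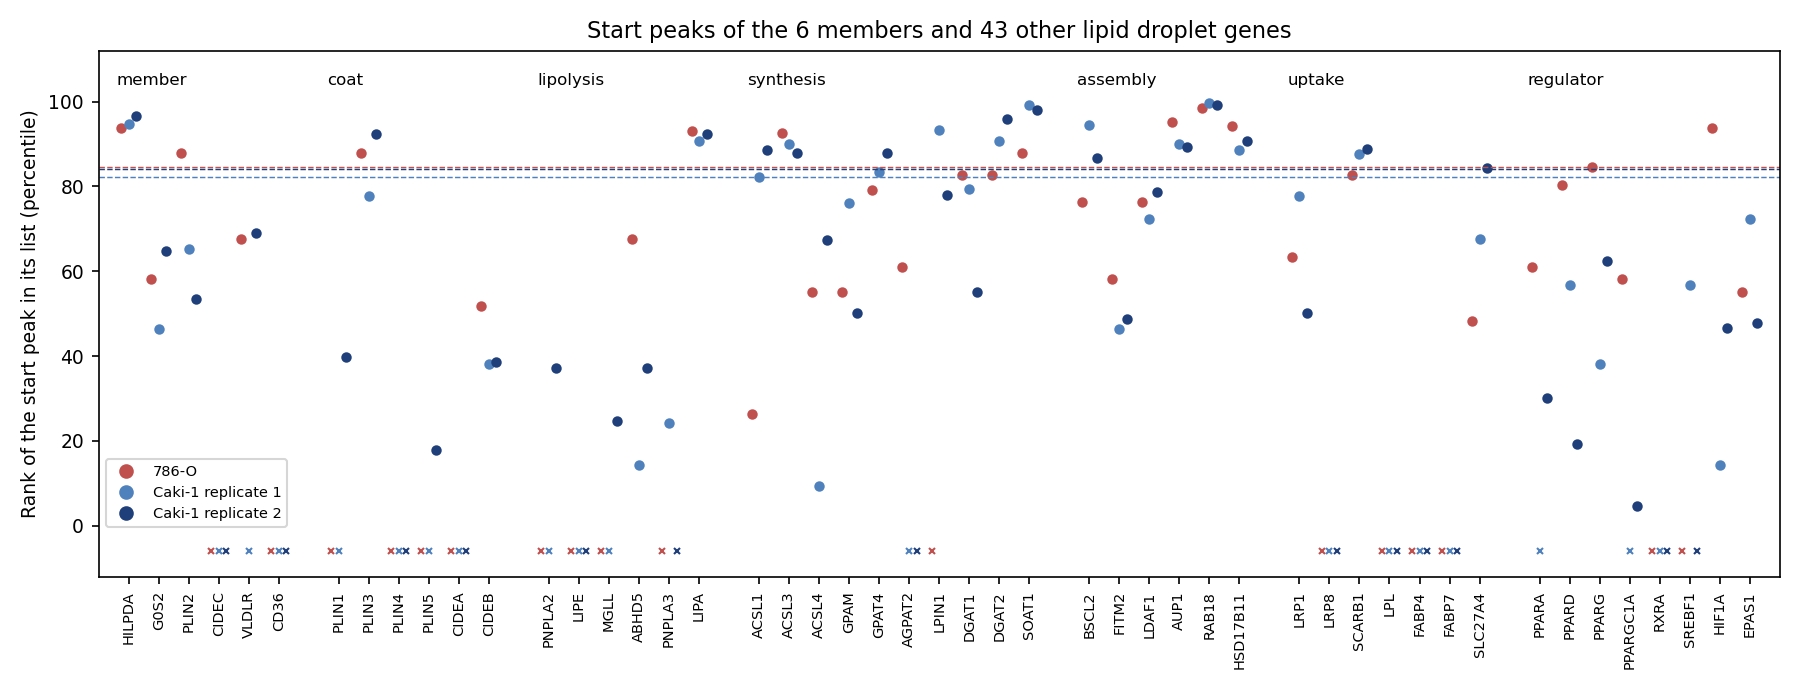
Percentile rank of the strongest start peak in its list for the 6 members and the 43 other genes, grouped by role (points, 1 colour per library; crosses below 0, no start peak). The dashed lines give the median rank of all start peaks of each library, 84.6, 82.2 and 84.1. HILPDA lies above these lines in all 3 libraries, as do RAB18, AUP1, HSD17B11, LIPA, SOAT1 and ACSL3, while G0S2 and VLDLR lie below them wherever they have a start peak.

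The genes most like each marked member were taken as those on other chromosomes with the smallest summed difference in start-peak rank over the 3 libraries. For HILPDA these were IDI1, NSRP1 and ENKUR among 8531 genes, with summed differences of 0.73, 0.91 and 1.0 points. For PLIN2 they were SOX12, RBM4B and SETD7 among 8610 genes, at 1.62, 2.9 and 5.02 points. For G0S2 they were ETS2, ATP6AP2 and UBE2S among 8026 genes, at 1.13, 4.35 and 5.37 points. The likeness rests on 3 libraries only and describes rank alone.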

How the data were processed

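H4K12la was profiled by CUT&Tag in 3 libraries, 1 of 786-O and 2 of Caki-1, grouped by the cell line in the labels. Per the submitters' processing notes, the tools include Bowtie2, fastp 0.19.6 and deepTools, with GRCh38 (hg38) as the build. The sources used here give neither the peak caller and its threshold nor a control or the depth. The authors deposited 1 peak list per library, without a header. Column 6 was read as a summit signal in the lists of 786-O and Caki-1 replicate 1 that the authors deposited, and as a score in that of Caki-1 replicate 2, whose deposited column 5 falls within its peak for only 9.65% of entries and was left aside. These values served only for ranks within a list, with ties at their mean rank.

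Gene spans and starts came from RefSeq tables on GRCh38.p14. The promoter table holds starts for 15811 of 19970 protein-coding genes. For the others, HILPDA included, both annotated ends were used. Overlaps, shares and intervals were computed with Python 3.11.15, pandas 2.3.3 and SciPy 1.17.1, and the overlap search was tested on simulated peaks. No test between lines was made. Alternatives were other window sizes, the stronger 50% of each list, stricter overlaps and leaving out each Caki-1 library. The named genes are all members, neighbours with a start peak, and from the list of 43 the 8 with the highest lowest rank, those with a start peak in 1 line and those with none. The other regulators, ACSL1 and ACSL4 are named besides. The members and lists were chosen with earlier results of these data known. 2 further genes first chosen for these lists were left out of every count and are not reported here.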

Additional observations from a re-analysis of the deposited data

How the results depend on the processing

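With peaks limited to the stronger 50% of each list, 3 members kept a window peak in all 3 libraries (HILPDA, PLIN2 and VLDLR) in place of 6, the windows of Caki-1 replicate 1 held 5 peaks in place of 13, and 15 of the 43 list genes had a start peak in all 3 libraries in place of 25 (34.9% beside 37.3% of all genes, in place of 58.1% beside 45%). Start peaks in all 3 libraries then remained at 2 members, HILPDA and PLIN2, in place of 3. Extension by 50 kb raised the window peaks to 37, 23 and 33, and extension by 10 kb left 8 in Caki-1 replicate 1. The other values moved by at most 1.5 times or stayed inside their interval. Leaving out either Caki-1 library gave 6 members with a window peak, and 3 to 4 members and 25 to 27 list genes with a start peak. Each count asks for a peak in every library kept, so leaving a library out could not lower it. Without replicate 1 the start-peak shares were 62.8% of the list and 47.6% of all genes. Without replicate 2 they were 58.1% and 46.5%. For window peaks the share of all genes, 76.7% in all 3 libraries, is given at the main setting only. Of the 786-O window peaks, 64.7% were shared with Caki-1 at the main setting, beside 54.6% of all 786-O peaks. The share was 64.7% without replicate 1 and 52.9% without replicate 2. With a reciprocal overlap of at least 50% it was 47.1%. It was 66.7% with extension by 10 kb, 56.8% with extension by 50 kb and 61.5% in the stronger 50% of each list. No paired analysis was possible because the lines share only 1 replicate number. No result here carries a test, 786-O has 1 library, and the depth behind the lists is unknown, so absence of a peak sets no limit on the mark.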

Other observations

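The lower edge of the HILPDA start peak was the same base, 128455534, in all 3 libraries, and that of the region 17410 bp upstream of CIDEC was 9897663 in all 3. Of the overlapping pairs of peaks in the member windows, 2 of 9 between 786-O and Caki-1 replicate 1, 2 of 11 between 786-O and Caki-1 replicate 2 and 3 of 10 between the Caki-1 replicates had the same lower edge, beside 3.6%, 3.16% and 4.58% over all peaks. The upper edge was the same in 1, 2 and 0 of these pairs, beside 3.78%, 3.36% and 4.2%. The pattern was chosen after its values were seen, and its cause was not tested.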
